A study of Homo sapiens with 6 samples.

Results

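The aminoacyl-tRNA synthetases and the scaffold proteins that hold some of them together are encoded by the 37 genes described here, chosen by name from the 50868 Ensembl gene identifiers of the series. They comprise 19 genes for cytosolic enzymes, 2 scaffold genes and 16 genes for mitochondrial enzymes. RNA-seq was done on cells labelled A549, a human lung adenocarcinoma line, and the labels give the same line, medium and library kit for every sample. The SF3B4 siRNA group held 3 libraries from cells transfected with an siRNA against SF3B4, a subunit of the SF3b complex that takes part in branch point recognition during splicing. The scramble siRNA group held 3 libraries from cells transfected with a control siRNA and labelled wild type. The design asks how transcript levels differ after SF3B4 depletion. The sequence and dose of the siRNAs and the time of harvest were not given in the sources used here. The titles call the replicates biological without naming separate cultures, and the p-values hence cover the spread among these libraries alone, which may be technical.

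Each aminoacyl-tRNA synthetase joins 1 amino acid to its matching tRNAs, the step that fixes the meaning of the genetic code. Cells keep a cytosolic set for nuclear mRNAs and a separate nuclear-encoded set that is imported into mitochondria and charges the tRNAs of the mitochondrial genome. GARS1 and KARS1 serve both compartments from a single gene. In the cytosol, several enzymes are gathered in the multisynthetase complex around the scaffold proteins AIMP1, AIMP2 and EEF1E1. Genes of many cytosolic enzymes are known targets of ATF4, a transcription factor made when amino acids run short or the endoplasmic reticulum is stressed.

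The checks of the libraries came first. SF3B4 stood at 22.0, 17.7 and 22.3 FPKM (fragments per kilobase of transcript, scaled to the library total) in SF3B4 siRNA libraries 1 to 3, against 88.6, 92.0 and 93.8 FPKM in scramble siRNA libraries 1 to 3, which fits the labels of the groups. Its mean was 22.6% of that in scramble siRNA libraries (exact two-sided permutation p = 0.1, the smallest that 3 against 3 libraries allow). For SF3B4 siRNA replicates 2 and 3, the genotype label reads SF3B5 and SF3B6, whereas title and treatment name SF3B4 and were followed. A different lung cancer line, H1650, appears in the names of the deposited tables. Of 9 epithelial and lung markers, 6 reached 1 FPKM in every library, but the lung markers SFTPB, NKX2-1 and NAPSA did not, and SFTPB was at 0 throughout. Of 10 genes known to be high in A549, 4 reached 1 FPKM in every library, and AKR1C1, AKR1C2, ALDH3A1 and ALDH1A1 stayed at or under 0.107 FPKM. The line is hence given here only as labelled. Of 5 markers of other cell types, 2 reached 1 FPKM in every library. The macrophage marker CD68 averaged 26.995 FPKM in SF3B4 siRNA libraries and 26.7 FPKM in scramble siRNA libraries (limma adjusted p = 0.88). The fibroblast collagen COL1A1 averaged 2.27 FPKM in SF3B4 siRNA libraries and 1.33 FPKM in scramble siRNA libraries and rose (log2 fold change 0.73, limma adjusted p = 0.0023). The leukocyte gene PTPRC was at 0 throughout, and the summed level of the 5 was 28.9 to 31.2 FPKM in SF3B4 siRNA libraries and 24.6 to 32.8 FPKM in scramble siRNA libraries. The summed level of the epithelial and lung markers was 1495 to 1559 FPKM in SF3B4 siRNA libraries and 1352 to 1551 FPKM in scramble siRNA libraries, mostly keratins. Within it, the epithelial cadherin CDH1 averaged 74.98 FPKM in SF3B4 siRNA libraries and 41.2 FPKM in scramble siRNA libraries, and EPCAM averaged 27.2 FPKM in SF3B4 siRNA libraries and 21.3 FPKM in scramble siRNA libraries, and both rose (limma adjusted p = 0.0080 and 0.049). The part of these marker changes in the results below was not tested. The implied depth was 17512274 to 18544115 fragments per library, or 17.5 to 18.5 fragments per kilobase of transcript at 1 FPKM. FPKM is a share of each library, so a change per cell in 1 gene and a change in the total RNA of the cells cannot be told apart.

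Promoter sequences were compared between the cytosolic and mitochondrial genes. The 8 letters TGATGNAA, those of the amino acid response element that ATF4 binds, were searched on either strand of RefSeq promoter windows (GRCh38.p14) from 250 bases before to 50 after each gene's start. They were present in 7 of 16 cytosolic genes with a window (43.8%), 0 of 2 scaffold genes and 1 of 14 mitochondrial genes, against 2.39% of the 7083 tested genes with a window and 4.46% of all 27305 genes with one. The 8 matches are shown because they mark which synthetase genes carry the letters, here in 40 bases 5′ to 3′ on the gene's own strand, with the matched letters in capitals on whichever strand they read. LARS1, VARS1, YARS1, AARS2 and VARS2 had no entry.
AARS1, chr16:70289670-70289709, minus strand: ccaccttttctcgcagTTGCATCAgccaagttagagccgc
CARS1, chr11:3057402-3057441, minus strand: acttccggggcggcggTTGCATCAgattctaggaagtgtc
GARS1, chr7:30594829-30594868, plus strand: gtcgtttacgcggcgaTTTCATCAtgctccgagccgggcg
IARS1, chr9:92293687-92293726, minus strand: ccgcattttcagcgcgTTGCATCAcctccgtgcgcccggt
MARS1, chr12:57488048-57488087, plus strand: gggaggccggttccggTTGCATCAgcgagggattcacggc
NARS1, chr18:57621799-57621838, minus strand: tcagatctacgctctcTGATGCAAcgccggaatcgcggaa
TARS1, chr5:33440951-33440990, plus strand: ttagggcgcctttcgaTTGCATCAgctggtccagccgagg
YARS2, chr12:32756071-32756110, minus strand: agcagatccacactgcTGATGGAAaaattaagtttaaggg
A match in a window is a description of letters and does not show that a factor binds there.

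In all, 36 of the 37 genes reached 1 FPKM in 3 or more of the 6 libraries and entered a limma test on log2(FPKM + 0.1), whose p-values were adjusted by Benjamini-Hochberg over all 9685 tested genes. At an adjusted p under 0.05, 7 rose and 4 fell after SF3B4 siRNA, so 11 of 36 (30.6%) were called, against 34.1% of all tested genes (16% higher and 18.1% lower). The share of synthetase genes called was thus near the background of these libraries and is no result about the family. Values of the groups did not overlap for 19 of the 36 (52.8%), against 49.5% of all tested genes. The untested gene was WARS2, the mitochondrial tryptophan enzyme, at 0.615, 0.594 and 0.715 FPKM in SF3B4 siRNA libraries and 0.581, 0.465 and 0.635 FPKM in scramble siRNA libraries.

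**Figure D1:**
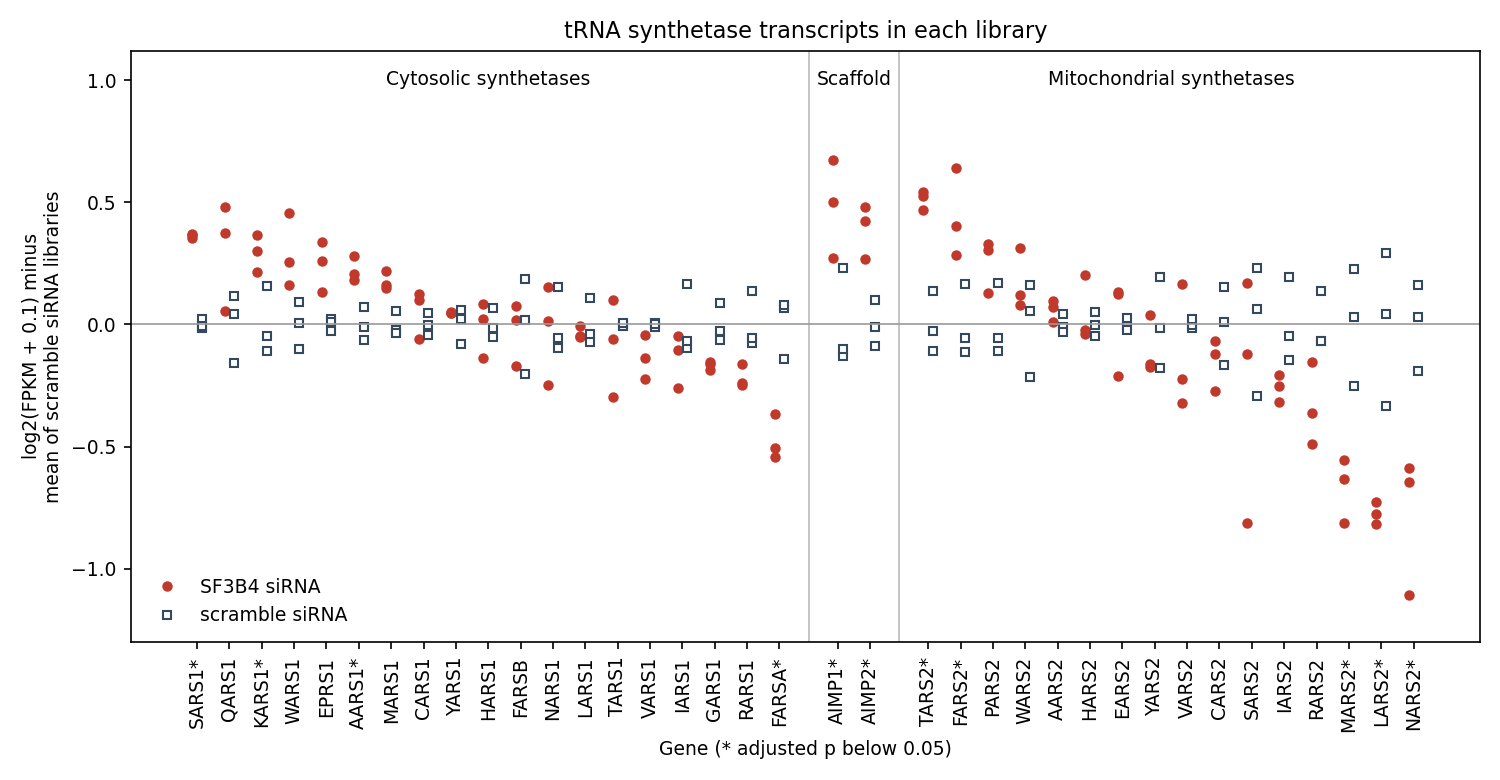
Per-library log2(FPKM + 0.1) of the 37 genes, each shown relative to that gene's mean over the scramble siRNA libraries (vertical axis, log2 scale); filled red circles are SF3B4 siRNA libraries, open squares scramble siRNA libraries, and an asterisk marks an adjusted p below 0.05. Cytosolic genes range in log2 fold change between SARS1 at 0.36 and FARSA at -0.47, and the mitochondrial genes spread further at the low end, with LARS2, MARS2 and NARS2 lowest.

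The cytosolic enzymes had a median change near 0. Of 19 tested genes, 3 rose (SARS1, KARS1 and AARS1) and 1 fell (FARSA), a called share of 21.1% against 34.1% of all tested genes. The other 15 did not pass the test. The median log2 fold change was -0.012, with quartiles of -0.11 and 0.23, against a median of -0.0035 and quartiles of -0.27 and 0.24 over all tested genes. The sign of the cytosolic median depended on the setting, with 0.0076 when rescaled to TPM, 0.022 under quantile normalization and -0.048 to 0.049 when 1 library was left out. In the libraries, the median level of the 19 genes was 11.7, 10.97 and 12.4 FPKM after SF3B4 siRNA and 11.9, 12.5 and 11.7 FPKM after scramble siRNA, and these overlap. Their summed level was 405, 414 and 401 FPKM in SF3B4 siRNA libraries and 382, 380.5 and 366 FPKM in scramble siRNA libraries, and these do not overlap. AARS1, the most abundant synthetase transcript, was the largest single contributor to that sum.

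SARS1, the seryl-tRNA synthetase (GRCh38 chromosome 1, plus strand), had the smallest adjusted p among the 37 genes and rose. It stood at 44.4, 44.3 and 43.9 FPKM in SF3B4 siRNA libraries and 34.0, 34.8 and 34.2 FPKM in scramble siRNA libraries. The groups lay far apart relative to their spread, and the log2 fold change with its SE was 0.36 ± 0.055 (limma adjusted p = 0.0025). KARS1, the lysyl enzyme of both compartments and a member of the multisynthetase complex, stood at 44.9, 40.4 and 43.0 FPKM in SF3B4 siRNA libraries and 38.9, 32.3 and 33.8 FPKM in scramble siRNA libraries. Its lowest SF3B4 siRNA value lay just above its highest scramble siRNA value, and the log2 fold change was 0.29 ± 0.086 (limma adjusted p = 0.033). AARS1, the alanyl enzyme, stood at 144.1, 151.6 and 141.8 FPKM in SF3B4 siRNA libraries and 124.2, 131.4 and 119.6 FPKM in scramble siRNA libraries. Every SF3B4 siRNA value was above every scramble siRNA value by a small margin, with a log2 fold change of 0.22 ± 0.060 (limma adjusted p = 0.025). The call of AARS1 was lost without SF3B4 siRNA replicate 1, 2 or 3 or scramble siRNA replicate 3, and that of KARS1 without SF3B4 siRNA replicate 1 or 3 or scramble siRNA replicate 2 or 3. Both were also lost under quantile normalization, with no filter and without the intensity trend and robust option, with adjusted p up to 0.19 for AARS1 and 0.11 for KARS1 over their alternatives.

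FARSA encodes the catalytic alpha subunit of phenylalanyl-tRNA synthetase, which works as a tetramer with the beta subunit from FARSB. FARSA was the cytosolic gene that fell, at 21.0, 23.1 and 20.4 FPKM in SF3B4 siRNA libraries and 26.9, 31.2 and 31.4 FPKM in scramble siRNA libraries. The groups did not overlap, and the log2 fold change was -0.47 ± 0.087 (limma adjusted p = 0.0054). FARSB stood at 9.15, 7.69 and 8.79 FPKM in SF3B4 siRNA libraries and 9.89, 8.78 and 7.52 FPKM in scramble siRNA libraries, which overlap, with a log2 fold change of -0.025 (limma adjusted p = 0.90). The log2 ratio of FARSA to FARSB averaged 1.32 in SF3B4 siRNA libraries and 1.77 in scramble siRNA libraries, a difference of -0.45 whose groups overlapped (exact two-sided permutation p = 0.2). The smallest p that this test allows is 0.1, so it could not have passed 0.05 for any ratio. Whether the 2 subunits changed differently is hence not decided by it.

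Among the 15 cytosolic genes that did not pass, 6 had values that did not overlap between the groups. Over all 19, 10 did not overlap (52.6%), near the 49.5% of all tested genes. EPRS1, the bifunctional glutamyl-prolyl enzyme, averaged 7.25 ± 0.52 FPKM in SF3B4 siRNA libraries and 6.10 ± 0.11 FPKM in scramble siRNA libraries (SD, n = 3 each; limma adjusted p = 0.062). WARS1, the tryptophanyl enzyme that is also known as an interferon-induced gene, averaged 8.30 ± 0.89 FPKM in SF3B4 siRNA libraries and 6.76 ± 0.46 FPKM in scramble siRNA libraries (limma adjusted p = 0.065). MARS1, the methionyl enzyme of the complex, had a log2 fold change of 0.18 (limma adjusted p = 0.087). On the low side, GARS1 (glycyl) had a log2 fold change of -0.17, RARS1 (arginyl) of -0.22 and VARS1 (valyl) of -0.13, with limma adjusted p-values of 0.085, 0.098 and 0.21. QARS1, the glutaminyl enzyme, averaged 16.3 ± 2.4 FPKM in SF3B4 siRNA libraries and 13.1 ± 1.3 FPKM in scramble siRNA libraries, with overlap (log2 fold change 0.30, limma adjusted p = 0.10). QARS1 passed without SF3B4 siRNA replicate 3 and with the replicate number as a block, and EPRS1 passed under quantile normalization.

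The remaining cytosolic genes lay close to 0. HARS1, the histidyl enzyme, changed least, at 6.32, 5.65 and 6.60 FPKM in SF3B4 siRNA libraries and 6.54, 6.0 and 6.16 FPKM in scramble siRNA libraries. CARS1 (cysteinyl) had a log2 fold change of 0.054 and YARS1 (tyrosyl) of 0.049. LARS1 (leucyl) stood at -0.034, NARS1 (asparaginyl) at -0.027, TARS1 (threonyl) at -0.086 and IARS1 (isoleucyl) at -0.14. The signs of HARS1, LARS1, NARS1, TARS1 and FARSB turned under some of the alternatives tried. The smallest adjusted p of the 7 genes named here other than FARSB was that of IARS1, at 0.32 in limma.

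Both scaffold genes rose. AIMP2 stood at 35.1, 31.4 and 36.6 FPKM in SF3B4 siRNA libraries and 28.0, 25.9 and 24.6 FPKM in scramble siRNA libraries. The groups were well separated, with a log2 fold change of 0.39 ± 0.083 (limma adjusted p = 0.0098). Of the exonic length of AIMP2, 28.9% overlaps EIF2AK1, the haem-regulated eIF2 alpha kinase on the opposite strand, and whether the authors counted by strand is not given, so reads of the overlap cannot be assigned. EIF2AK1 averaged 25.1 FPKM in SF3B4 siRNA libraries and 23.8 FPKM in scramble siRNA libraries (log2 fold change 0.082, limma adjusted p = 0.49). AIMP1, the precursor of a secreted cytokine as well as a scaffold, was far less abundant, at 2.26, 2.66 and 3.01 FPKM in SF3B4 siRNA libraries and 2.19, 1.69 and 1.72 FPKM in scramble siRNA libraries. Its lowest SF3B4 siRNA value was just above its highest scramble siRNA value (log2 fold change 0.48 ± 0.15, limma adjusted p = 0.042). That call was lost with no filter and with the replicate number as a block. It was also lost without SF3B4 siRNA replicate 2 or 3 or scramble siRNA replicate 2 or 3, with adjusted p up to 0.13 in limma.

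The third scaffold protein, EEF1E1, is not among the 37 genes; it averaged 1.51 ± 0.26 FPKM in SF3B4 siRNA libraries and 1.96 ± 0.32 FPKM in scramble siRNA libraries, with overlap (log2 fold change -0.35, limma adjusted p = 0.15). Taking the 9 genes of the multisynthetase complex that are in the set (7 enzymes with AIMP1 and AIMP2), 3 rose and 0 fell (33.3% called, near the 34.1% of all tested genes), and the median log2 fold change was 0.24. The 12 cytosolic enzymes outside the complex held 2 that rose and 1 that fell (25% called), with a median of -0.018. No test was made of the complex, and 3 of its 9 genes lay below 0.

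The mitochondrial enzymes held changes in both directions. Of 15 tested genes, 2 rose (TARS2 and FARS2) and 3 fell (LARS2, MARS2 and NARS2), a called share of 33.3% against the 34.1% of all tested genes. NARS2 entered the test only through the scramble siRNA libraries, where it was high. The median log2 fold change was -0.13, with quartiles of -0.30 and 0.052. It was 0.058 over the 7 genes with a mean of at least 5 FPKM, and leaving out 1 library gave -0.17 to -0.062, with -0.062 without SF3B4 siRNA replicate 1 and -0.069 without SF3B4 siRNA replicate 3. The median level of all 16 genes was 4.20, 4.18 and 4.61 FPKM in SF3B4 siRNA libraries and 4.42, 4.52 and 4.70 FPKM in scramble siRNA libraries. Their sum was 84.2, 81.8 and 85.2 FPKM after SF3B4 siRNA and 90.1, 84.1 and 88.4 FPKM after scramble siRNA. Medians and sums both overlapped between the groups.

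LARS2, the mitochondrial leucyl enzyme (GRCh38 chromosome 3, plus strand), stood at 2.26, 2.33 and 2.42 FPKM in SF3B4 siRNA libraries and 3.20, 4.19 and 5.00 FPKM in scramble siRNA libraries. The SF3B4 siRNA values were close together and below the widely spread scramble siRNA values, with a log2 fold change of -0.77 ± 0.16 (limma adjusted p = 0.0080). NARS2, the asparaginyl enzyme, stood at 0.950, 0.662 and 0.991 FPKM in SF3B4 siRNA libraries and 1.74, 1.34 and 1.58 FPKM in scramble siRNA libraries (log2 fold change -0.78 ± 0.18, limma adjusted p = 0.014). NARS2 reached the minimum of 1 FPKM in the scramble siRNA libraries alone, so a gene at its level entered the test through the group in which it was high. With no filter, its adjusted p in limma was 0.043. MARS2, the methionyl enzyme, whose gene is annotated with 1 exon, stood at 2.01, 1.66 and 1.89 FPKM in SF3B4 siRNA libraries and 3.52, 3.06 and 2.50 FPKM in scramble siRNA libraries. Again no value overlapped (log2 fold change -0.67 ± 0.15, limma adjusted p = 0.011). The calls of LARS2 and MARS2 held under each of the 13 alternatives that could test them.

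TARS2, the mitochondrial threonyl enzyme, rose, at 6.07, 5.99 and 5.75 FPKM in SF3B4 siRNA libraries and 3.83, 4.55 and 4.05 FPKM in scramble siRNA libraries. The groups were well apart, with a log2 fold change of 0.51 ± 0.095 (limma adjusted p = 0.0055). FARS2, the monomeric phenylalanyl enzyme of mitochondria, stood at 8.48, 9.22 and 10.9 FPKM in SF3B4 siRNA libraries and 6.43, 7.83 and 6.69 FPKM in scramble siRNA libraries. It too was higher in every SF3B4 siRNA library than in any scramble siRNA library, with a log2 fold change of 0.44 ± 0.12 (limma adjusted p = 0.026). The FARS2 call was lost with no filter and without SF3B4 siRNA replicate 2 or 3 or scramble siRNA replicate 1 or 3, with adjusted p up to 0.078.

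**Figure D2:**
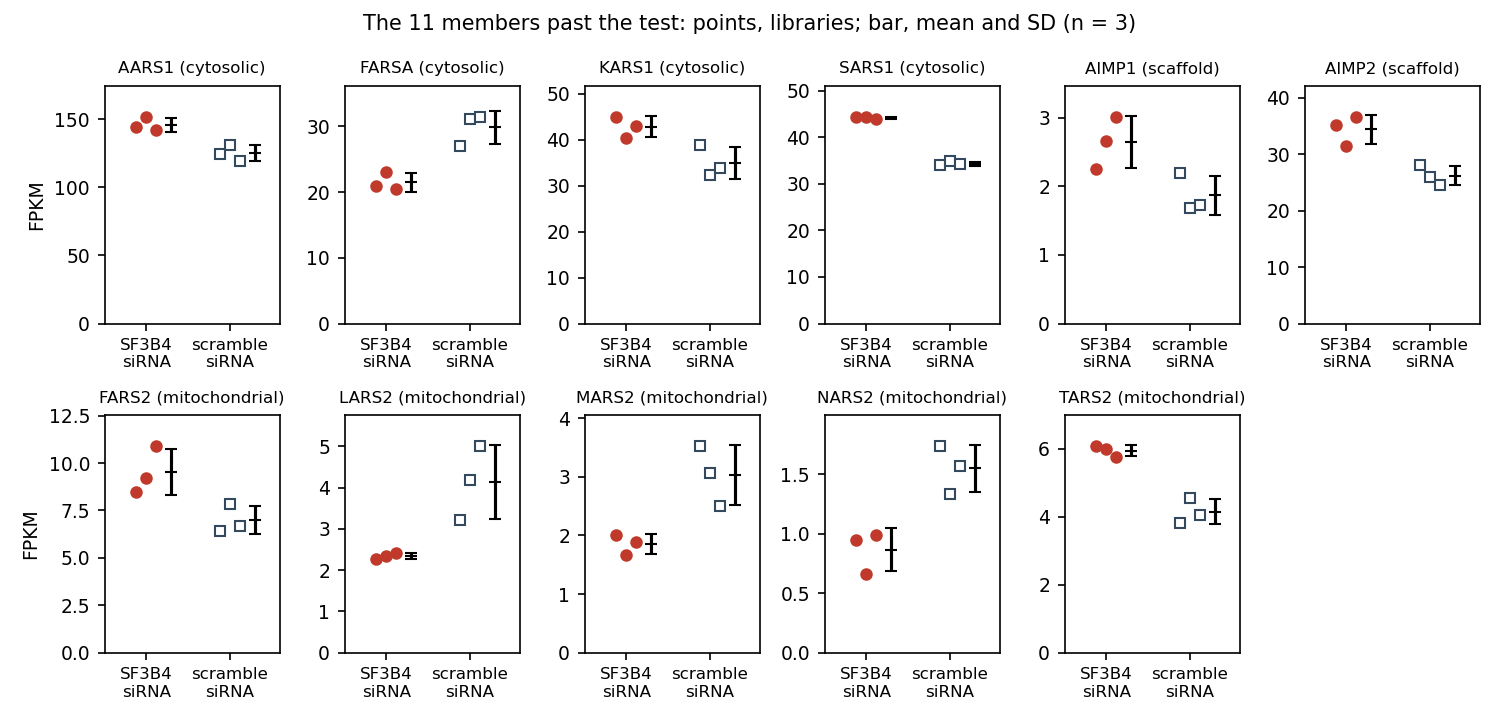
FPKM (vertical axes, each starting at 0) of the 11 called genes in each library; red circles are SF3B4 siRNA libraries, open squares scramble siRNA libraries, and the bars beside them show mean and SD over 3 libraries. The groups do not overlap in any of the 11 panels, and the gap relative to the axis is narrow for KARS1 and AIMP1 and wide for SARS1, TARS2 and NARS2.

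Of the 10 mitochondrial genes that were tested and not called, IARS2 and RARS2 had groups that did not overlap. Over the 15 tested, 7 did not overlap (46.7%), near the 49.5% of all tested genes. IARS2, the isoleucyl enzyme and the most abundant of the mitochondrial set, averaged 15.3 ± 0.59 FPKM in SF3B4 siRNA libraries and 18.4 ± 2.3 FPKM in scramble siRNA libraries (SD, n = 3 each; limma adjusted p = 0.077). RARS2, the arginyl enzyme, averaged 3.72 ± 0.46 FPKM in SF3B4 siRNA libraries and 4.71 ± 0.40 FPKM in scramble siRNA libraries (limma adjusted p = 0.061). IARS2 passed without scramble siRNA replicate 2 and RARS2 without SF3B4 siRNA replicate 3. EARS2 (glutamyl) changed least, at 4.13, 3.24 and 4.11 FPKM in SF3B4 siRNA libraries and 3.75, 3.70 and 3.83 FPKM in scramble siRNA libraries. HARS2 (histidyl) followed, at 4.27, 4.22 and 5.01 FPKM in SF3B4 siRNA libraries and 4.33, 4.20 and 4.49 FPKM in scramble siRNA libraries; it lies head to head with HARS1, and their exons overlap in part. The signs of EARS2 and HARS2 also turned when 1 library was left out. AARS2 (alanyl) and PARS2 (prolyl) had log2 fold changes of 0.058 and 0.25, and YARS2 (tyrosyl) and CARS2 (cysteinyl) of -0.10 and -0.15, all without passing.

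SARS2 and VARS2 need a caution about counting. SARS2, the mitochondrial seryl enzyme, stood at 7.91, 6.44 and 3.95 FPKM in SF3B4 siRNA libraries and 7.34, 5.72 and 8.25 FPKM in scramble siRNA libraries, so SF3B4 siRNA replicate 3 alone lay below the others. Its log2 fold change was -0.26 (limma adjusted p = 0.49) and became 0.023 without that library, and 46.2% of its exonic length overlaps another annotated gene on the same strand. VARS2, the valyl enzyme, averaged 4.47 ± 0.85 FPKM in SF3B4 siRNA libraries and 4.84 ± 0.063 FPKM in scramble siRNA libraries (log2 fold change -0.13, limma adjusted p = 0.50). It shares 22.0% of its exonic length with GTF2H4, a subunit of the transcription factor TFIIH, on the same strand. GTF2H4 averaged 6.83 FPKM in SF3B4 siRNA libraries and 10.2 FPKM in scramble siRNA libraries (log2 fold change -0.65, limma adjusted p = 0.11). The 16 pseudogenes named after any of these genes were each at or under 0.0052 FPKM on average.

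The enzymes divide into 2 structural classes by the fold of their catalytic domain. Of the 9 cytosolic class I enzymes, 0 rose and 0 fell in limma, though 4 of the 9 had groups that did not overlap (44.4%, against 49.5% of all tested genes), and the median log2 fold change was 0.049. The 9 cytosolic class II enzymes held all 4 cytosolic calls, 3 higher and 1 lower (44.4% called, against 34.1% of all tested genes), with a median of -0.025. Of the 8 tested mitochondrial class I enzymes, 2 fell and 0 rose (25% called), 7 lay below 0 and the median was -0.21. The 7 mitochondrial class II enzymes held 2 that rose and 1 that fell (42.9% called), with a median of 0.058. The gene that fell was NARS2, which entered the test only through the scramble siRNA libraries. These counts are small, and the difference between the classes was not tested.

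Cytosolic genes were on the whole expressed above their mitochondrial partners. Levels over all 6 libraries ran from 2.48 FPKM (LARS1) to 135 FPKM (AARS1), with a median of 12.3 FPKM, in the cytosolic set, and from 0.601 FPKM (WARS2) to 16.9 FPKM (IARS2), with a median of 4.54 FPKM, in the mitochondrial set. FPKM is scaled by transcript length, but the lengths used by the authors were not given, so levels of different genes can be compared only roughly. At 5 FPKM or more on average stood 16 of 19 cytosolic and 7 of 16 mitochondrial genes. Across 15 amino acids with a gene in each compartment, the cytosolic gene had the higher mean in both groups for 13. The exceptions were isoleucine, where IARS2 was above IARS1 in both groups, and leucine.

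The ratio of the cytosolic to the mitochondrial gene was compared between the groups for all 15 pairs. The difference was positive for 11 pairs and negative for 4, and the groups did not overlap for 6 of the 15. Taken singly, 49.5% of all tested genes did not overlap, and no such share was computed for ratios of other gene pairs. The count of 6 is hence no result about the compartments. For methionine, the log2 ratio of MARS1 to MARS2 averaged 2.81 ± 0.13 in SF3B4 siRNA libraries and 1.97 ± 0.23 in scramble siRNA libraries (SD, n = 3 each), a difference of 0.84. The NARS1 to NARS2 ratio averaged 1.86 ± 0.36 in SF3B4 siRNA libraries and 1.10 ± 0.13 in scramble siRNA libraries, a difference of 0.75. NARS2 was under 1 FPKM in every SF3B4 siRNA library. For leucine, the ratio of LARS1 to LARS2 changed side, at 0.062 ± 0.029 in SF3B4 siRNA libraries and -0.68 ± 0.40 in scramble siRNA libraries, a difference of 0.74 that came with the lower LARS2 level. AARS1 to AARS2 differed by 0.16.

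The opposite shift was seen for phenylalanine and threonine. The FARSA to FARS2 ratio averaged 1.17 ± 0.23 in SF3B4 siRNA libraries and 2.08 ± 0.12 in scramble siRNA libraries, a difference of -0.91, with the alpha subunit lower and the mitochondrial enzyme higher. The TARS1 to TARS2 ratio averaged 0.021 ± 0.22 in SF3B4 siRNA libraries and 0.62 ± 0.13 in scramble siRNA libraries, a difference of -0.60. Each of these 6 pairs had an exact two-sided permutation p of 0.1, the smallest possible with 3 against 3, and 0.25 after Benjamini-Hochberg adjustment over the 15 pairs, so the design could not pass any pair. The SARS1 to SARS2 ratio differed by 0.62, led by SF3B4 siRNA replicate 3, and overlapped (exact two-sided permutation p = 0.2). For the other 8 pairs (cysteine, glutamate, histidine, isoleucine, arginine, valine, tryptophan and tyrosine) the differences lay between -0.058 and 0.23 and the groups overlapped.

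**Figure D3:**
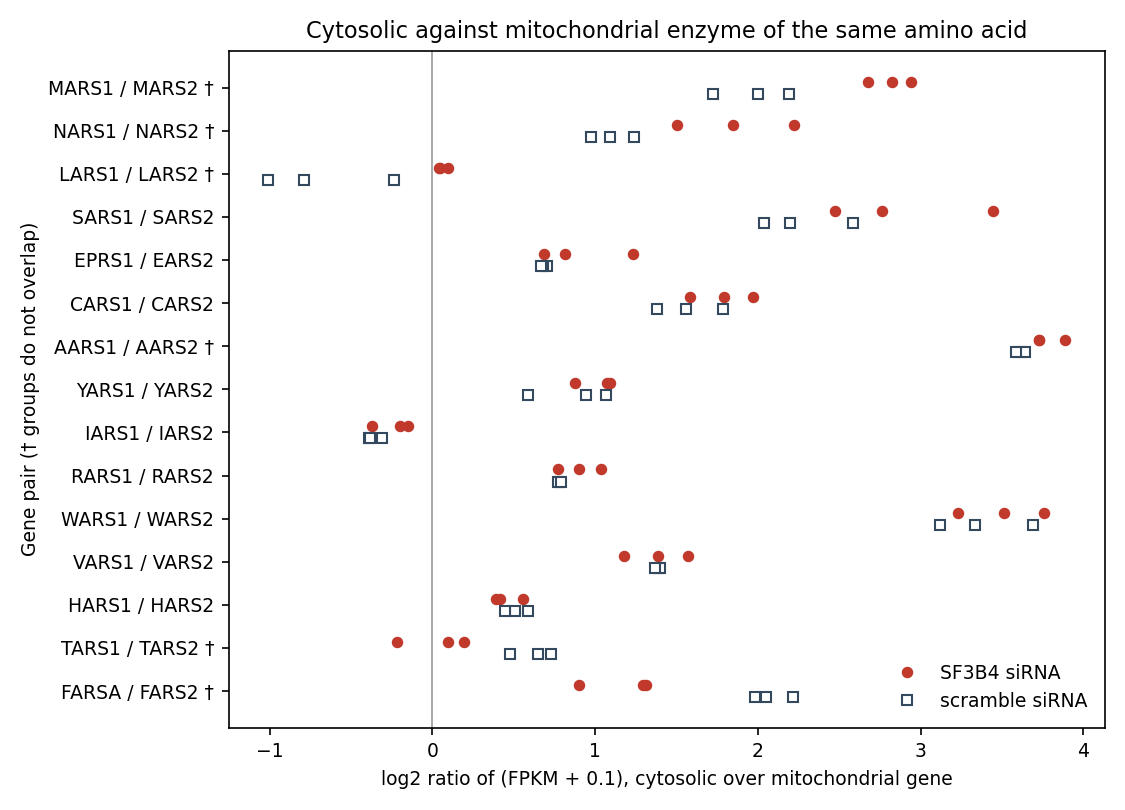
Log2 ratio of (FPKM + 0.1) of the cytosolic over the mitochondrial gene for 15 amino acids (horizontal axis), 1 point per library; red circles are SF3B4 siRNA libraries, open squares scramble siRNA libraries, and a dagger marks pairs whose groups do not overlap. MARS1/MARS2, NARS1/NARS2, LARS1/LARS2 and AARS1/AARS2 lie further right after SF3B4 siRNA, and FARSA/FARS2 and TARS1/TARS2 further left.

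Among cytosolic genes whose promoter window held TGATGNAA, AARS1 was the one that rose. The 7 genes with a match had a median log2 fold change of -0.027 (range -0.17 to 0.22). The 9 with a window and no match had a median of 0.24 (range -0.47 to 0.36), with 2 that rose and 1 that fell. Over all tested genes with a window, the median was 0.0046 for the 169 with a match, of which 30 rose and 30 fell. It was -0.0013 for the 6915 without a match, of which 1146 rose and 1272 fell. Of all tested genes, 34.1% were called. Whether the letters bear on the calls was not tested.

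A list of amino acid response genes, ATF4 among them, was read beside the synthetases. ATF4 mRNA stood at 97.1, 105 and 107 FPKM in SF3B4 siRNA libraries and 87.7, 95.0 and 89.4 FPKM in scramble siRNA libraries, without overlap (log2 fold change 0.18, limma adjusted p = 0.060). ATF4 is regulated mainly at translation, which these data do not measure. Of 29 tested genes of that list, 3 rose and 9 fell (41.4% called, against 34.1% of all tested genes), with a median log2 fold change of -0.11. The neutral amino acid transporter SLC1A4 fell to 2.65, 2.29 and 2.72 FPKM in SF3B4 siRNA libraries, against 5.47, 5.68 and 5.13 FPKM in scramble siRNA libraries (log2 fold change -1.06, limma adjusted p = 0.00042). PSPH, which completes serine synthesis, and PYCR1, which makes proline in mitochondria, fell by 0.81 and 0.78 on the log2 scale (limma adjusted p = 0.0011 and 0.012). DDIT3, the stress transcription factor CHOP, rose, at 1.89, 1.95 and 1.86 FPKM in SF3B4 siRNA libraries and 1.196, 1.228 and 1.008 FPKM in scramble siRNA libraries (log2 fold change 0.69, limma adjusted p = 0.0044). SESN2, a stress-induced inhibitor of growth signalling, and the glutamine transporter SLC1A5 also rose, by 0.62 and 0.54 on the log2 scale. The other genes that fell were SLC3A2, ALDH18A1, STC2, PSAT1, ASNS and SHMT2, with log2 fold changes of -0.62 (SLC3A2) to -0.34 (SHMT2). SESN2, SLC1A5 and these genes were named after their values were seen, to complete the calls. The list hence held calls in both directions, 9 lower and 3 higher.

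Other proteins that handle tRNA were described by the same test. Of 18 such genes, 12 were tested, 1 rose and 1 fell (16.7% called, against 34.1% of all tested genes), with a median log2 fold change of 0.0029. GATB, a subunit of the mitochondrial amidotransferase that makes glutaminyl-tRNA where mitochondria lack a glutaminyl enzyme, stood at 2.55, 2.54 and 2.56 FPKM in SF3B4 siRNA libraries and 1.89, 1.76 and 1.77 FPKM in scramble siRNA libraries (log2 fold change 0.47, limma adjusted p = 0.0081).

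Of 14 mitochondrial translation factors, 8 were tested, with 1 higher and 1 lower (25% called, against 34.1% of all tested genes) and a median of -0.23. GFM2, the factor that recycles mitochondrial ribosomes, stood at 1.94, 1.64 and 2.08 FPKM in SF3B4 siRNA libraries and 4.30, 3.57 and 3.76 FPKM in scramble siRNA libraries (log2 fold change -1.004, limma adjusted p = 0.0011). TACO1, a translational activator of cytochrome oxidase subunit 1, averaged 19.7 ± 0.25 FPKM in SF3B4 siRNA libraries and 16.2 ± 0.68 FPKM in scramble siRNA libraries (log2 fold change 0.28, limma adjusted p = 0.015). The TACO1 call was lost without SF3B4 siRNA replicate 2 or 3 or scramble siRNA replicate 3.

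**Figure D4:**
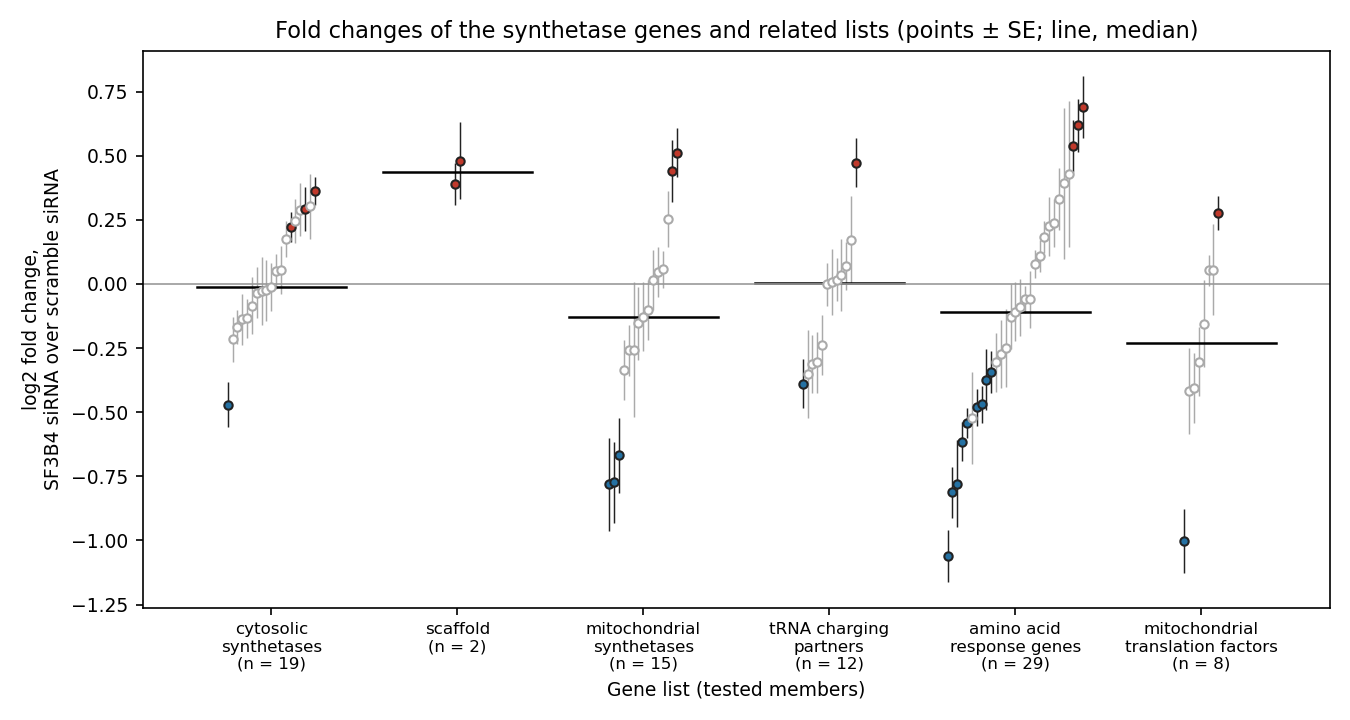
Log2 fold change (SF3B4 siRNA over scramble siRNA, vertical axis) with its standard error for each tested gene of the 3 synthetase sets and 3 related lists; red points are genes that rose, blue points genes that fell, open points genes not called, and the horizontal bar is the median of the list. The medians are -0.012 for cytosolic, 0.44 for scaffold and -0.13 for mitochondrial genes, and the amino acid response list spans -1.06 to 0.69.

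In these libraries, genes whose 3′ UTR holds GCCTTCA or CCTTCAA had a lower median fold change than the rest, a pattern from which those 7-letter words, which overlap in 6 letters, were themselves picked. A word was found in 1766 of 8381 searched genes (21.1%), whose median log2 fold change was -0.17, against 0.025 in the genes without. Among the synthetase genes, 4 of 36 searched (11.1%) held one: 0 of 19 cytosolic, 1 of 2 scaffold and 3 of 15 mitochondrial genes. The 4 sites are shown because LARS2, among the most reduced synthetase genes, is one of the carriers, as 27 bases of GENCODE 29 transcripts (GRCh38), 5′ to 3′ on the sense strand, with the word in capitals.
LARS2, chr3:45548018-45548044, plus strand: tggtctctttGCCTTCAggctggatga
VARS2, chr6:30926307-30926333, plus strand: gtggtccatcGCCTTCAttgtgtaaat
AIMP1, chr4:106348927-106348953, plus strand: ctgtctgaatCCTTCAAtaagaaggag
EARS2, chr16:23522863-23522889, minus strand: gaaagctggtCCTTCAAttccagccaa
Of these 4 genes, LARS2 fell, AIMP1 rose, and VARS2 and EARS2 did not pass the test. FARSA, MARS2 and NARS2, which also fell, held no such word in the searched 3′ UTRs. Over all 1766 searched genes with a word, 172 rose and 572 fell. Over the 6615 searched genes without a word, 1230 rose and 995 fell. The words were picked from these same fold changes, so the counts cannot tell whether a word bears on a call, which was not tested.

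Neither gene structure nor level ordered the changes closely. Over the 36 tested genes, Spearman's rho of the log2 fold change was -0.24 with the number of annotated exons (1 to 39), 0.048 with exonic length and 0.27 with mean FPKM, given as a description of genes that share the same 6 libraries.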

How the data were processed

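The deposited values are FPKM, computed by the authors for each gene in each library, from total RNA per the labels' protocols. The submitters' processing notes list HISAT2 2.0.4, StringTie 1.3.0 and GRCh38; what role each had, the annotation, read layout and strand setting were not given in the sources used here. Since FPKM is no count, count models were not used. In single-exon genes, 94.7% to 94.9% of 2294 to 2417 low values per library lay within 0.02 of whole fragments, which gives the implied depth; multi-exon genes did not allow this. Symbols were found for 49659 of 50868 identifiers, and 50111 were in GENCODE 29 (GRCh38), which gave positions, exons and 3′ UTRs. Promoter windows came from RefSeq (GRCh38.p14).

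Groups followed the titles. The 9685 genes that reached 1 FPKM in 3 or more of 6 libraries were tested with limma 3.58.1 in R 4.3.3 on log2(FPKM + 0.1) (two-sided, SF3B4 siRNA minus scramble siRNA, intensity trend, robust), and p-values were adjusted by Benjamini-Hochberg over them at a threshold of 0.05; this scale understates changes of low genes. Every adjusted p of a gene comes from that fit. Gene lists are described by counts and medians, with no test of the list. The gene that fell among the other tRNA-handling genes is not reported here. Library values are given for called genes and the 2 least changed per set, means for most others, and for each related list the up to 4 largest changes past the threshold. In the amino acid response list, all calls are named. The genes and lists were chosen with earlier results of these data known. The fit was tested on simulated data. Alternatives covered scaling, pseudocount, filter, limma options, replicate block, gene membership and leaving out each library. Python 3.11.15 and scipy 1.17.1 ran the exact permutation tests. Depth figures cover counting error only.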

Additional observations from a re-analysis of the deposited data

How the results depend on the processing

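SF3B4, SARS1, FARSA, AIMP2 and TARS2 kept their calls under all 14 alternatives, and of 492 alternative values for single synthetase genes, 445 kept direction and side of the threshold, 25 lost the call, 5 gained it and 17 changed sign. All 17 were genes without a call. HARS1 stood at 0.0076 when rescaled to TPM, and under quantile normalization HARS1 stood at 0.016, FARSB at 0.0021, LARS1 at 0.022 and NARS1 at 0.020. Leaving out 1 library gave log2 fold changes of -0.127 to 0.069 for FARSB, -0.059 to 0.052 for HARS1, -0.070 to 0.020 for LARS1, -0.117 to 0.082 for NARS1, -0.178 to 0.019 for TARS1, -0.042 to 0.128 for EARS2, -0.031 to 0.089 for HARS2 and -0.469 to 0.023 for SARS2. Over all genes, a mean of at least 5 FPKM left 4752 tested, with 1027 higher and 940 lower. With that filter 1 scaffold gene was called, 0 of 7 mitochondrial genes were lower, 0 charging partners were higher and 0 translation factors were lower, since fewer genes were tested; the medians became 0.019 (cytosolic) and 0.058 (mitochondrial), and under quantile normalization 0.022 and -0.081. With no filter, 1 cytosolic, 1 scaffold and 1 mitochondrial gene were higher. Without trend and robust options, 1 cytosolic gene was higher and 2 translation factors were lower; the cause was not tested. Without genes overlapping another gene by over 20%, chosen after seeing the data, 1 scaffold gene remained in the list and was higher. Leaving out 1 library gave 1094 to 1492 genes higher and 1331 to 1604 lower; 1 to 3 cytosolic genes higher (median -0.048 to 0.049); 1 to 2 mitochondrial genes higher and 3 to 4 lower (median -0.17 to -0.062); 1 to 2 scaffold genes higher; 0 to 2 charging partners lower; 3 to 4 amino acid response genes higher and 8 to 9 lower; and 0 to 1 translation factors higher and 1 to 2 lower.

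Same-numbered libraries did not deviate together (r = -0.08, 0.02 and -0.12), which does not settle whether they were handled together. With the replicate block, 1290 genes were higher and 1537 lower, and 4 cytosolic genes and 1 of the 2 scaffold genes were higher. Among the 36 synthetase genes it changed 2 calls, QARS1, which passed (adjusted p = 0.037), and AIMP1, which did not (adjusted p = 0.089).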
